A study of Mus musculus with 2 samples.

Results

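The genes of the Groucho and CoREST corepressors were examined in the map of open chromatin of mouse cardiac progenitor cells (CPCs) at day 5 of differentiation. They comprised 6 Groucho genes (Tle1, Tle2, Tle3, Tle4, Tle6 and Aes), 3 CoREST genes (Rcor1, Rcor2 and Rcor3) and Rest. Their peaks were chosen by the gene symbol that the deposited list gives to the nearest transcription start site (TSS) of each peak. This took 20 of 26232 distinct peaks and 10 of 15351 genes with a peak. Because the members were chosen on the readout described here, their peak numbers, distances and widths are descriptions without a test.

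The CPCs were derived from E14 embryonic stem cells, at passages 16-20 and with the strain given as C57BL/6, which carry the Tg(Nkx2-5-EmGFP) reporter, a green fluorescent protein driven by the promoter region of an early heart gene. Cells were exposed to BMP4, aggregated, re-aggregated with Activin A, VEGF and BMP4, and then plated with VEGF, bFGF and FGF10. Sorting of the reporter-positive cells is not described for these libraries, so the chromatin may come from a mixture. ATAC-seq, which marks accessible DNA by the adapters that a transposase can place there, was performed on 2 replicates of this 1 group, and the result is 1 list of peaks found in both. Both samples are labelled only as day 5 CPCs, and the deposited list has the word control in its name. Cells with Isl1 knockdown, also mentioned for the series, were not analysed here, so there was no comparison between conditions. The list holds intervals, distances and gene names but no height, no value per replicate and no depth, and the differentiation-to-differentiation error of every number below is therefore unknown.

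Groucho and CoREST proteins do not choose their sites by DNA sequence. Groucho proteins (TLE in mammals) are recruited by repressors such as HES and HEY factors, by RUNX factors and by TCF/LEF factors in the absence of a Wnt signal, and they bring histone deacetylases to the gene. Tle1 to Tle4 encode the full-length proteins, with an N-terminal part that joins them into tetramers and a C-terminal WD40 propeller that grips the recruiting factors. Aes, now also named Tle5, encodes a short protein that has the N-terminal part without the propeller and can oppose the others, and Tle6 encodes a divergent member best known from the oocyte and early embryo. Rcor1, Rcor2 and Rcor3 encode the CoREST scaffolds that hold the histone demethylase LSD1 together with the deacetylases HDAC1 and HDAC2. Rest encodes a zinc finger repressor that binds a long DNA element at neuronal genes, and recruits CoREST through its C-terminal and SIN3 through its N-terminal part. In heart muscle REST is known for holding down fetal genes such as natriuretic peptides and pacemaker channels.

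All 10 corepressor genes had at least 1 peak, where 62.5% of 21900 protein coding genes had one. At 8 of 10 genes a peak midpoint lay within 1 kb of the TSS (a TSS peak), against 50.0% of protein coding genes, and all 8 of these peaks covered the TSS itself. Of the 20 peaks, 8 (40.0%) were TSS peaks, near the 44.9% of the whole list. The genes without a TSS peak were Aes, whose peak lay inside the gene near its end, and Tle2, whose peak lay before the gene. At least 2 peaks were assigned to 4 of 10 genes, Tle1, Tle3, Tle4 and Rcor1, compared with 39.2% of genes with a peak. Tle3 had the most, 8 peaks, a number reached or passed by 89 genes (0.580%). This number depends on how peaks are assigned: Tle3 had 5 peaks by the nearest protein coding TSS of GENCODE, and 2 when peaks in the gene body or the 10 kb before it were counted, as had Tle2, Tle6, Aes, Rcor3 and Rest.

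The promoters are shown first, because 4 of them share a palindrome. In the RefSeq promoter sequences (GRCm38.p6, from 250 bases before to 50 after the start), 10 promoters of 8 of these genes were found, and each matched mm9 once at its gene. The letters CACGTG, the type of E-box that HES and HEY factors and several other bHLH proteins can bind, stood in 4 of 10, those of Tle3, Tle4, Tle6 and Rcor2. This compares with 7.15% of all 32851 RefSeq promoters and 11.5% of the 10996 promoters that are CpG-rich. All 4 promoters lay inside the TSS peak of their gene. The sequences follow 5′ to 3′ along the gene with mm9 positions and with CACGTG in capitals.
Tle3, chr9:61219923-61220222, plus strand: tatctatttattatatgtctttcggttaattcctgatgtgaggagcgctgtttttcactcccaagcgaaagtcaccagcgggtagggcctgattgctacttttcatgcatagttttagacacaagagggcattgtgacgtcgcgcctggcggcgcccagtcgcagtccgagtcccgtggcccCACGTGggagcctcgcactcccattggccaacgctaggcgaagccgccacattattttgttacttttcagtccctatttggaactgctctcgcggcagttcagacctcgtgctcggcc
Tle4, chr19:14672624-14672923, minus strand: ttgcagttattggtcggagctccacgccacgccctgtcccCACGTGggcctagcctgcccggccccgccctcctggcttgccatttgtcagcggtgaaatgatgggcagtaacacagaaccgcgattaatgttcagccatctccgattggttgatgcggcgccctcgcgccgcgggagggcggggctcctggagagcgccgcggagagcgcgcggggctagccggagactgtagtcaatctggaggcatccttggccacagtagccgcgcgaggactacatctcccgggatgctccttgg
Tle6, chr10:81063596-81063895, minus strand: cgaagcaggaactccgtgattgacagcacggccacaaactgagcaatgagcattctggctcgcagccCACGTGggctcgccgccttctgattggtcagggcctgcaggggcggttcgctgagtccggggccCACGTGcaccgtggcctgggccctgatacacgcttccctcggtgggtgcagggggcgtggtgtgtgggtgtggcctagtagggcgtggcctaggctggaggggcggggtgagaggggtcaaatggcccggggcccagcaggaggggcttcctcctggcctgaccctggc
Rcor2, chr19:7341634-7341933, plus strand: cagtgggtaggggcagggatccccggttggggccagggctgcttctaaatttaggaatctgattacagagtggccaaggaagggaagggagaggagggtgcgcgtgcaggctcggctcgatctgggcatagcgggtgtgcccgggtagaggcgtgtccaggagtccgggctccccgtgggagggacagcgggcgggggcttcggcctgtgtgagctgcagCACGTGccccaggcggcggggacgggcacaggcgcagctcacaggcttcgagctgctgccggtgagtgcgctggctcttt
Counted by the first base of the match, the E-box began 68 bases before the start in Tle3, 210 in Tle4, 183 and 119 in Tle6 and 30 in Rcor2. In Tle3, Tle4 and the farther site of Tle6 it was part of the longer palindrome CCACGTGG, which was searched after these sequences had been seen and which occurs in 0.785% of all and 1.26% of CpG-rich promoters. None of the 10 held CTTTGA (TCF/LEF, in 16.0% of all promoters), TGTGGT (RUNX, 16.8%), GGAATG (TEAD, 14.7%), TAATTG (homeodomain, 2628 of 32851 promoters) or TTCAGCACC (the left part of the REST element, 0.371%), and none held AGATAA, the letters of cardiac GATA factors (11.2%). At such shares a set of 10 promoters would hold few matches. GGACAG, the right part of the REST element, stood in 3 of 10, where 22.2% of all promoters hold it. A match of letters is no evidence of binding, and its absence in this window says nothing about the factor.

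The Tle2 promoter is shown as the contrast, a promoter with a high CpG content that no peak covered.
Tle2, chr10:81037782-81038081, plus strand: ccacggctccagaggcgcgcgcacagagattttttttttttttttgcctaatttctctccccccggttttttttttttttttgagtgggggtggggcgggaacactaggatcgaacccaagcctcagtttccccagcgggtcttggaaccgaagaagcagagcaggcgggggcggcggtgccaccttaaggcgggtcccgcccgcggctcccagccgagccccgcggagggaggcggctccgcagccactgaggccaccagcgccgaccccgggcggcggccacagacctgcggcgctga
Its observed over expected CpG ratio was 0.89 at 64.7% GC, close to the 0.88 and 65.0% of the Tle4 promoter shown above, which lay inside a peak. RefSeq gives a second promoter to Tle4 (chr19:14671654-14671953, CpG ratio 1.10, 73.0% GC) and to Tle6 (chr10:81060063-81060362, 0.13, 60.0%), and neither of these lay inside a peak. The second promoter of Tle4 lay close to the edge of the TSS peak of the gene, at 14672006.

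**Figure D1:**
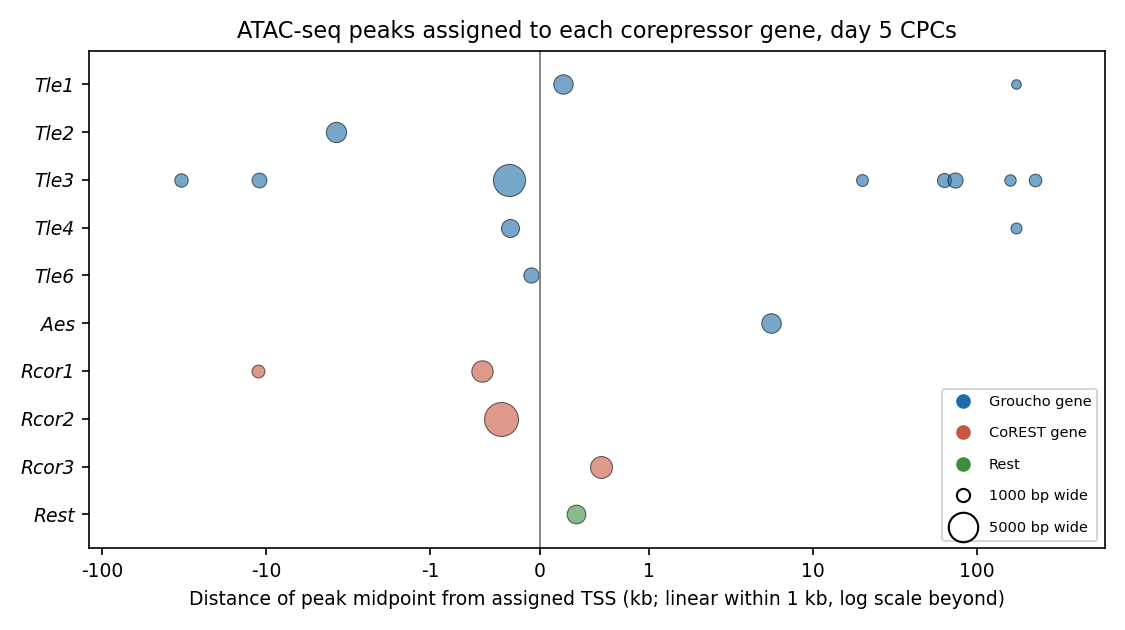
Each circle is 1 of the 20 peaks, placed by the distance of its midpoint from the assigned TSS (x axis, kb, negative before the TSS, linear within 1 kb and on a log scale beyond) and by gene (y axis), with its area proportional to peak width. Of the 10 genes, 8 have a circle within 1 kb, and Tle3 has the longest series, from -33090 bp to 225100 bp.

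Among the full-length Groucho genes, Tle3 had the most extended open region. Its TSS peak (chr9:61216916-61222867, midpoint -282 bp from the TSS) was 5952 bp wide, reaching 3257 bp before and 2694 bp after the TSS, and ranked 9 among all peaks of the list and 5 among 11772 TSS peaks. The 2 further peaks before the gene were 1040 bp wide at -33090 bp and 1263 bp wide at -11130 bp. Within the gene only 1 other peak was found, in an intron at 19769 bp (814 bp). Beyond its end 4 peaks followed, at 63056 bp (1149 bp), 73665 bp (1335 bp), 158230 bp (750 bp) and 225100 bp (921 bp). The peaks away from the TSS were thus all much narrower than the one over it, and except for the one in the intron they were intergenic.
The outer peaks of Tle3 were also poor in CpG. Their observed over expected CpG ratio was between 0.06 and 0.28, against 0.71 at the TSS peak. Peaks beyond 1 kb in the whole list had a median of 0.24. Tle3 lies in a wide stretch of chromosome, 400 kb between the nearest peaks of its neighbours B930092H01Rik and Rplp1. Some of these peaks could be named differently. By the nearest protein coding TSS of GENCODE, 3 of the 8, including the TSS peak, belong to the gene model Gm10655. The midpoint of that TSS peak lies in a noncoding part of an exon of Gm10655.

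Tle1 and Tle4 had the same arrangement, 1 peak at the TSS and 1 far beyond the end of the gene. The TSS peak of Tle1 (chr4:71860623-71862804) was 2182 bp wide at 214 bp, and that of Tle4 (chr19:14672006-14673879) was 1874 bp wide at -269 bp. The second peak was 529 bp wide at 172718 bp for Tle1 and 696 bp wide at 172465 bp for Tle4. As deposited, the distances of this pair of paralogues differed by 253 bp, but that of Tle4 is measured from another start than its TSS peak. From the nearest annotated TSS of the same gene the second peaks lay at 92558 bp for Tle1 and 28968 bp for Tle4, so the likeness rests on the choice of start. Both second peaks were intergenic, 88.7 kb after the end of Tle1 and 23.0 kb after the end of Tle4. Both lay in AT-rich sequence, with 38.6% and 40.9% GC, the lowest values among the 20 peaks. To let this pair of far peaks be compared by sequence, the central 150 bp of both peaks are shown on mm9, with matches to the searched motifs in capitals on either strand.
Tle1, chr4:71689135-71689284, plus strand: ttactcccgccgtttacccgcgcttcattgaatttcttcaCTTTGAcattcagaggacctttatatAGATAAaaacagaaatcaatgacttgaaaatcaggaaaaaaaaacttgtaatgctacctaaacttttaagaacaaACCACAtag
Tle4, chr19:14499164-14499313, plus strand: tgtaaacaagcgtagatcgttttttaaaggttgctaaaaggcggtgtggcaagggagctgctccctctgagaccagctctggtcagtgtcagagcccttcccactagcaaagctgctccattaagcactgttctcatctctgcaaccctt
The longest run of bases shared by the 2 whole peaks, beyond the parts shown, was 9 bp. In the Tle1 sequence the capitals mark the TCF/LEF letters CTTTGA, the letters of GATA factors, and those of RUNX on the other strand. TCF/LEF and RUNX factors recruit Groucho proteins, and GATA factors act in early heart cells. Such letters are common: in the central 300 bp of all peaks beyond 1 kb, CTTTGA stood in 17.5%, AGATAA in 14.6% and TGTGGT in 18.7%. Binding at the Tle1 peak was not tested. The part of the Tle4 peak shown held none of the searched motifs, but AGATAA and GGACAG stood elsewhere in that peak. The territories of these genes were the widest of the set, 3241 kb for Tle1 and 2642 kb for Tle4, measured between the nearest peaks of the neighbouring genes.

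The smaller Groucho genes Aes, Tle2 and Tle6 are neighbours on chromosome 10, within 41.6 kb. Aes and Tle2 run in the same direction and are 8.20 kb apart, and Tle2 and Tle6 converge on each other with 58 bp between their ends. Each had 1 peak, and only that of Tle6 lay at a promoter. The Tle6 peak (chr10:81063049-81064392) was 1344 bp wide at -75 bp and was the narrowest of the 8 TSS peaks. The Aes peak (chr10:81026661-81028854) was 2194 bp wide at 5568 bp, began 4422 bp after the start of the gene and ended 253 bp before its end. The Tle2 peak (chr10:81033118-81035481) was 2364 bp wide at -3733 bp, in the interval between both genes, 4011 bp after the end of Aes and 1825 bp before the annotated start of Tle2. These were the widest of the 12 corepressor peaks beyond 1 kb: 97.4% of all peaks of that class were narrower than the Aes peak and 98.0% narrower than the Tle2 peak. No peak covered any annotated TSS of Aes or of Tle2. The peak next before Aes, 838 bp wide, carries the name of Gna11, and one of 2017 bp beyond Tle6 that of BC025920.

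**Figure D2:**
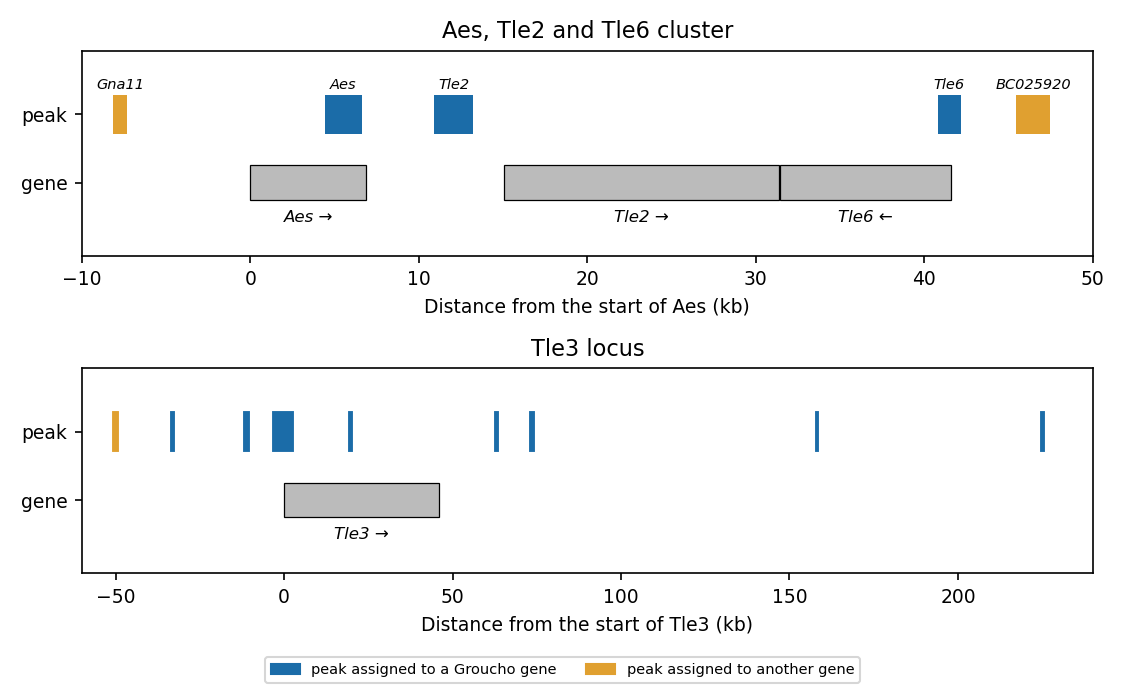
Peaks (upper bars) and gene bodies (lower bars, arrows giving the direction of transcription) around Aes, Tle2 and Tle6 (upper panel) and around Tle3 (lower panel), against distance in kb from the start of Aes or Tle3, with peaks of Groucho genes in blue and those named for other genes in orange. The starts of Aes and Tle2 have no bar above them, while the start of Tle3 lies within the bar of 5952 bp.

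Rcor2 carried the widest peak of the CoREST genes. It was 6640 bp wide (chr19:7338212-7344851, midpoint -353 bp), reached 3672 bp before and 2967 bp after the TSS, and ranked 3 in the whole list and 2 among TSS peaks. The gene itself is 7901 bp long. Wide TSS peaks are mostly CpG-rich: the 13 TSS peaks of at least 5000 bp had a median CpG ratio of 0.69, and the Rcor2 peak had the lowest of them, 0.38. Only 7.37% of all TSS peaks had a ratio at or under it. Low ratios also occurred in peaks of like width whose midpoints fell outside this class. Such peaks were those of Slc35b2 (6348 bp, midpoint 2267 bp, ratio 0.35), Tns2 (5519 bp, -1071 bp, 0.34) and Dbp (6072 bp, 1392 bp, 0.46). The GC content of the Rcor2 peak was 60.8%, so over its whole length it was rich in G and C yet poor in CpG. This does not describe the promoter alone: the Rcor2 promoter shown above had a CpG ratio of 0.67 at 67.3% GC.
Rcor1 and Rcor3 had TSS peaks of nearly equal width. That of Rcor1 (chr12:112276167-112278802) was 2636 bp wide at -525 bp with a CpG ratio of 0.82. That of Rcor3 (chr1:193959982-193962748) was 2767 bp wide at 558 bp with a ratio of 0.73. Rcor1 had a second peak of 958 bp at -11158 bp, which was intergenic. An intron of Rcor3 held a further peak of 509 bp that is assigned to Traf5, the neighbouring gene.

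Rest had 1 peak, over its TSS. It was 2029 bp wide at 328 bp (chr5:77693834-77695862) and had the highest GC content of the 20 peaks, 68.5%, with a CpG ratio of 0.96. A second interval of 1755 bp (chr5:77710413-77712167) lay in the body of Rest, with its midpoint in a coding exon 16774 bp after the gene start, and carries the name of Mir5098. By the nearest protein coding TSS it would belong to Rest.

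Taken by class, the 8 TSS peaks of corepressor genes were wide. Their median was 2409 bp (range 1344 to 6640), against a median of 1326 bp and quartiles of 1072 and 1691 bp over all 11772 TSS peaks. A TSS peak of at least 2000 bp was found at 6 of 8 genes, where 13.6% of the 11453 genes with a TSS peak had one, and Tle4 and Tle6 were the genes below. The 12 peaks beyond 1 kb had a median of 999 bp, against 911 bp over all such peaks. Widths come from 1 set of calls, and neither their replicate error nor the part that depth plays in them was measured.

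**Figure D3:**
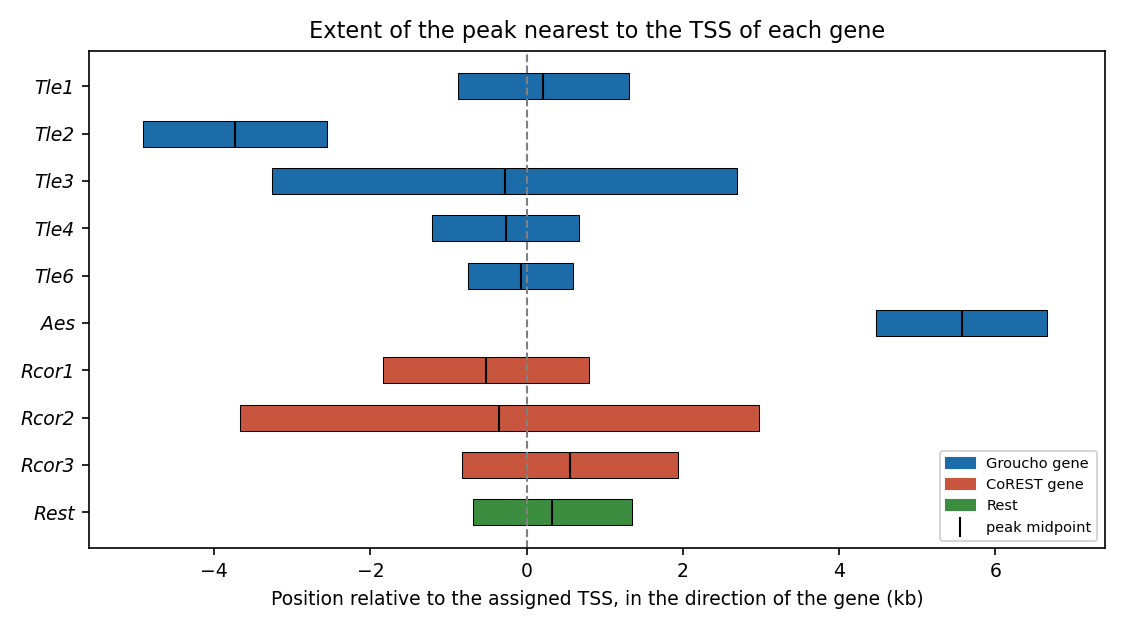
The extent of the peak nearest to the assigned TSS of each gene (x axis, kb relative to the TSS in the direction of transcription, dashed line at the TSS), with a tick at the peak midpoint. The bars of Tle3 and Rcor2 (5952 and 6640 bp) are the longest, and those of Tle2 and Aes do not reach the dashed line.

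CpG-rich peak centres occurred only among the TSS peaks of these genes. A peak centre (300 bp) was called CpG-rich where its CpG ratio reached 0.6 and its GC content 50%. Such a centre was found in 5 of 20 corepressor peaks (25.0%), against 41.9% of all peaks. All 5 were TSS peaks, those of Tle1, Tle4, Rcor1, Rcor3 and Rest, out of 8, where 78.6% of all TSS peaks qualified. The TSS peaks of Tle3, Tle6 and Rcor2 did not, the centre of Tle3 having 40.7% GC although the whole peak had 58.3%. A peak centre need not be the promoter. The promoters of Tle3 (0.98 at 53.7% GC) and Rcor2 (0.67 at 67.3%) passed both limits, while that of Tle6 (0.53 at 68.0%) did not. None of the 12 outer peaks had a CpG-rich centre, against 12.1% of all peaks beyond 1 kb. At that share 12 peaks would hold few or none.

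**Figure D4:**
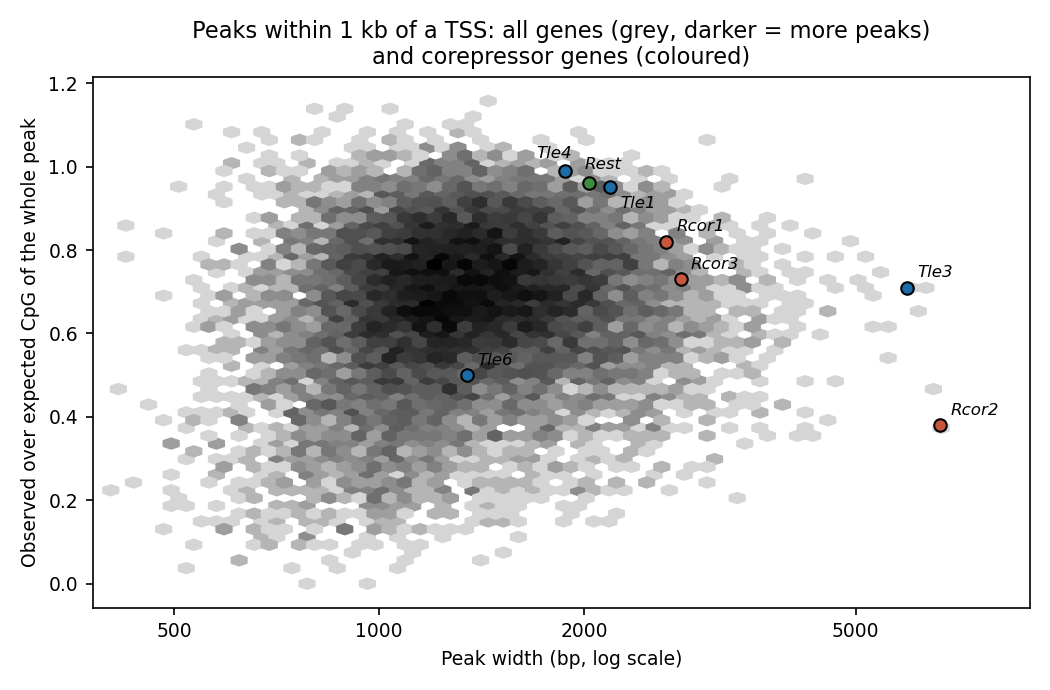
Width in bp (x axis, log scale) and observed over expected CpG of the whole peak (y axis) for all 11772 TSS peaks (grey hexagons, darker for more peaks) and for the 8 TSS peaks of corepressor genes (coloured points: Groucho blue, CoREST red, Rest green). Rcor2 (6640 bp, 0.38) lies below the other TSS peaks of at least 5000 bp, and Tle1, Tle4 and Rest lie near the upper edge with ratios of 0.95, 0.99 and 0.96.

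Motif letters in the central 300 bp were counted on both strands in the 20 peaks and in the whole list. AGATAA, which GATA factors bind, stood in 4 of 20 (20.0%) against 9.50% of all peaks. All 4 were outer peaks, 2 of Tle3 and 1 each of Tle1 and Rcor1. The whole list showed the same placement, with AGATAA in 14.6% of peaks beyond 1 kb and 3.28% of TSS peaks. Among the 12 outer corepressor peaks the share was 33.3%. The TCF/LEF letters CTTTGA stood in 4 of 20 against 13.2%, at Tle1, Tle3 and Tle4. CACGTG stood in 2 of 20 against 6.13%, the TSS peaks of Tle4 and Tle6. TGTGGT (RUNX) was found in 2 of 20 against 14.6%, and GGACAG, the right part of the REST element, in 4 of 20 against 27.5%. In a set of 20 peaks such shares rest on a few matches each. No centre held TTCAGCACC (0.637% of all peaks), GGAATG (16.5%) or TAATTG (4.28%). In the central 600 bp GGAATG stood in 30.0% of the corepressor peaks (28.7% of all peaks) and TAATTG in 10.0% (9.79%), so their absence holds only for the narrower window.

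The proteins that work with these corepressors were followed through lists of their partners and targets. Over all protein coding genes, 62.5% had a peak and 50.0% a TSS peak, the shares to set beside each list. All 10 listed members of the CoREST complex beside the scaffolds had a peak, and 9 had a TSS peak. Among them Kdm1a, which encodes the demethylase LSD1, had a TSS peak of 1446 bp, and the deacetylase genes Hdac1 and Hdac2 had TSS peaks of 1589 and 1716 bp. Gse1 had 9 peaks, the widest 5502 bp at -33 bp. Of 7 other REST partners 6 had a peak (85.7%) and 5 a TSS peak (71.4%). Sin3a had a single peak of 5279 bp whose midpoint fell at -1254 bp, and Cdyl had 4 peaks. Ehmt2, a histone methyltransferase gene, had none under its name.

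Of 18 genes for factors that recruit Groucho proteins, 16 had a peak (88.9%, against 62.5% of all protein coding genes). A TSS peak was found at 10 (55.6%), near the 50.0% of all protein coding genes. Together the 18 genes had 55 peaks, with a median of 3 per gene. Runx1 and Tcf7l2 had 7 peaks each, Hey1 and Runx3 had 5, and Tcf7l1, Lef1 and Prdm1 had 4. Nkx2-2 and Pax5, factors of the nervous system and of B cells, had no peak under their names. Of the 55 peaks, 11 were TSS peaks, where 44.9% of the whole list were. The Hes1 peak of 3074 bp, with its midpoint at -1004 bp, spans the TSS but falls just outside this class.

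The 18 listed neuronal targets of REST all had a peak at the promoter in these CPCs. The list was chosen with earlier results of these data known, so its share is a description of these genes only. A TSS peak was found at 18 of 18 such genes, which encode synaptic proteins, channels, receptors and secretory proteins of neurons, against 50.0% of protein coding genes. Snap25 had 5 peaks, and Bdnf and Unc13a had 4 each. Their TSS peaks were of modest width, with a median of 1096 bp over 21 peaks, against 1326 bp for all TSS peaks. Of the 6 cardiac targets, 4 had a TSS peak (66.7%, against 50.0%): Nppb, Hcn4, Cacna1g (with 4 peaks) and Cacna1h. No peak carried the name of Nppa or Hcn2. Of the 59 partner and target genes, 91.5% had a peak by name and 93.2% by the nearest protein coding TSS of GENCODE. An absence from these lists can thus depend on how peaks are named.

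The REST element itself was visible in these promoter peaks. Both parts of it, TTCAGCACC and GGACAG separated by 2 bases, were searched in whole peaks on both strands after the gene lists had been counted. They stood together in 51 of 26232 peaks (0.194%) and in 22 of 11772 TSS peaks (0.187%). In the neuronal list 6 of 21 TSS peaks (28.6%) held both parts, those of Chga, Chrm4, Chrnb2, Grin1, Snap25 and Syt4, and 9 of 21 (42.9%) held the left part, which stands in 2.00% of all peaks and 2.44% of TSS peaks. No peak of a corepressor gene, of a cardiac target or of another partner list held the left part, and at that share 20 peaks would hold few or none. Of the 6 elements 5 are shown to let the shared letters be seen, read on mm9 5′ to 3′ on the strand named, with both parts in capitals.
Chga, chr12:103793438-103793477, plus strand: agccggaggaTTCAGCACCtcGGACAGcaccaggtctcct
Chrm4, chr2:91761481-91761520, minus strand: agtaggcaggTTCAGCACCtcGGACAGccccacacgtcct
Chrnb2, chr3:89568367-89568406, minus strand: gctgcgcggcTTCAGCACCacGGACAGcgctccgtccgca
Grin1, chr2:25174525-25174564, minus strand: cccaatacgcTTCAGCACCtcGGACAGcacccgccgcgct
Snap25, chr2:136540064-136540103, plus strand: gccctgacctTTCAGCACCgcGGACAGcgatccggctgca
In the peaks of Grin1, Snap25, Syt4 and Chrnb2 the left part lay 9, 33, 48 and 54 bp from the peak midpoint, and in those of Chga and Chrm4 112 and 436 bp from it. Genes of this list are known as REST targets because they carry the element, so its presence is background, and what the list adds is that the element lay inside a peak. Whether REST occupied it was not measured.

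**Figure D5:**
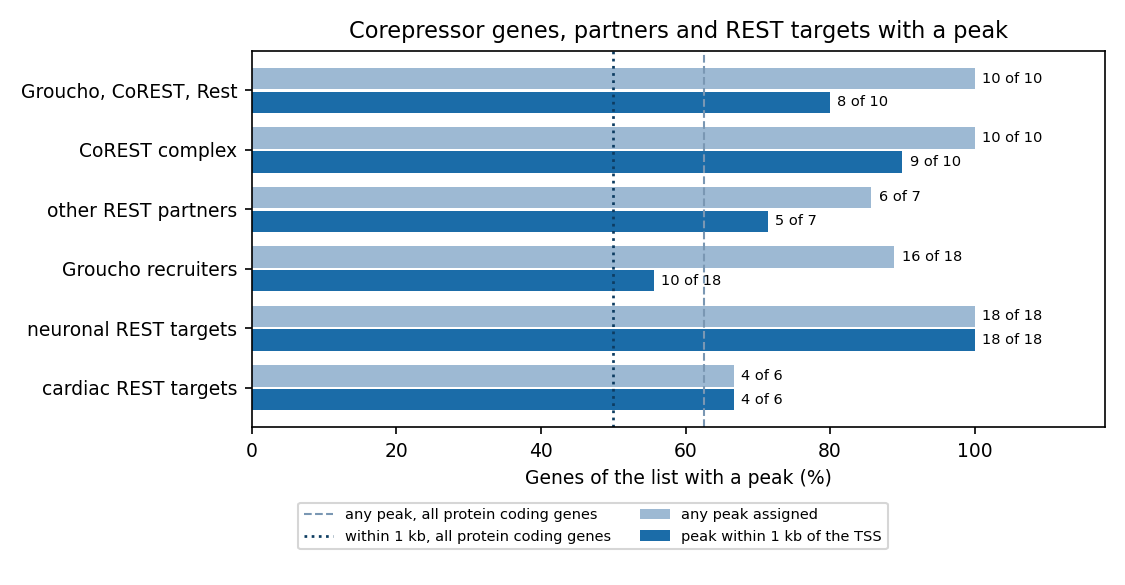
Share of genes (x axis, %) with any assigned peak (light bars) and with a peak within 1 kb of the TSS (dark bars) in each gene list (y axis), with counts beside the bars. The dashed and dotted lines mark 62.5% and 50.0%, the same shares over all protein coding genes, and the neuronal REST targets reach 18 of 18 in both.

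Lists of cell type markers gave the setting of these values. A peak was found at 9 of 10 cardiac progenitor genes, including Isl1 with 8 peaks, Tbx20 with 6 and Nkx2-5 with 3. None carried the name of Hand2. A peak was found at 6 of 6 neural, 4 of 6 pluripotent (66.7%) and 3 of 6 hepatic genes (50.0%), against 62.5% of protein coding genes. The pluripotent marker Klf4 had 8 peaks, as many as Isl1, and the neural marker Sox1 had 5. TSS peaks were found at 7 of 10 cardiac progenitor (70.0%), 4 of 6 neural (66.7%) and 3 of 6 pluripotent genes (50.0%). No hepatic gene had a TSS peak, where 50.0% of protein coding genes had one. A peak at a neural or pluripotent gene does not tell whether other cells were present or whether the site was accessible in CPCs, and the part of cell mixture in the values above was not tested.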

How the data were processed

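ATAC-seq was performed on 2 replicates of day 5 CPCs, per the study's methods from independent differentiations. Per the methods and the submitters' processing notes, the authors mapped reads to mm9 with Bowtie2, filtered them with SAMtools, removed duplicates with Picard (version 1.136), called peaks per replicate with MACS with a fixed shift, dropped blacklisted regions and kept peaks overlapping between replicates by at least 1 bp with bedtools (version 2.15). Nearest TSSs were assigned with HOMER, a step stated for the ChIP-Seq peaks. The deposited list has 6 columns without a header (interval, signed distance in bp from TSS to midpoint, accession, symbol) and no score, count or depth. A peak called in 1 replicate alone is not listed, a width has the coordinates of 1 replicate, and the absence of a peak does not measure closed chromatin.

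The 26429 lines were reduced to 26232 distinct intervals, given 1-based. Sequence came from NCBIM37 (mm9), read with pysam (version 0.24.0), and gene models from GENCODE vM1 on that assembly. RefSeq tables (GRCm38.p6) served for names and promoter sequences, and 96.7% of the peaks carried an accession found there. A territory is the distance between the nearest peaks of the neighbouring genes. With 1 group and 1 list, no test was run. Counting scripts were tested on simulated data.

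The members and gene lists were chosen with earlier results of these data known. All 10 members are named, and from the partner lists each gene without a peak and each with at least 4 peaks, and each gene model whose TSS lay nearest to a member peak. The genes Kdm1a, Hdac1, Hdac2, Sin3a, the 6 genes with a REST element, Isl1, Tbx20 and Nkx2-5 were named after their values were seen, as were Nppb, Hcn4 and Cacna1h. Klf4, Sox1, Slc35b2, Tns2 and Dbp were also named after theirs were seen.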

Additional observations from a re-analysis of the deposited data

How the results depend on the processing

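Of 36 alternative settings, 34 left their result within its interval or within 1.5 times its value. All 10 genes kept at least 1 peak with peaks of at least 500 bp, with the nearest protein coding TSS and with gene bodies extended by 10 kb, and the number of peaks was 20, 18 and 15. The share of corepressor peaks within 1 kb was 40.0%, and 30.0% within 500 bp. The exceptions were the TEAD letters GGAATG, which went from 0 to 30.0% of the corepressor peaks when the central window was 600 bp in place of 300 bp (28.7% of all peaks), and the widest peak of Tle6, which went from 1344 to 2017 bp when the 10 kb before the gene were counted, since this takes in the peak named for BC025920. The median width was 1339.5 bp over the 20 peaks and 1913 bp as the median of the medians per gene. No paired analysis was possible because no second group was measured, and no replicate could be left out because the list has no values per replicate. With depth unknown, a missing peak at Aes or Tle2 is only a peak not called in both replicates.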
